A study of Sus scrofa with 12 samples.

Results

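The hormone receptors through which the pituitary and the steroids act on the ovary were followed in 6 pig ovaries. The set held 9 genes, chosen as the rows of the gene expression table whose names were exactly LHCGR, FSHR, PGR, PGRMC1, ESR1, ESR2, NR3C1, PRLR and GHR, of 29884 genes in all. All 9 were found, each in 1 row, and 7 of them reached 1 FPKM in at least 3 ovaries, while ESR2 and PRLR stayed below this filter. FPKM is the number of reads on a gene divided by the transcript length and by the depth of the library. The ovaries were left ovaries of sows from 1 commercial farm free of PRRSV and PCV, taken 4 days after delivery of litter number 4. The sows fell into 2 groups of 3, one with small litter size (SLS, ovaries ZD2, ZD3 and ZD12, 8.48 ± 0.53 piglets per litter) and one with large litter size (LLS, ovaries ZD5, ZD7 and ZD8, 16.19 ± 0.43 piglets per litter), with 1 ribosomal RNA-depleted library per ovary and no treatment. The labels give no breed, cycle stage or age, and the whole ovary was sequenced, so that fewer cells of a type and less RNA per cell cannot be told apart.

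Gonadotropins from the pituitary act through receptors on the cell surface that raise cAMP. FSHR, the receptor for follicle-stimulating hormone, is known from granulosa cells of growing follicles, and LHCGR, the receptor for luteinizing hormone, from theca cells, granulosa cells of large follicles and the corpus luteum. Steroid receptors such as PGR, ESR1, ESR2 and NR3C1 change transcription in the nucleus when they bind their hormone, whereas PRLR and GHR are cytokine receptors that signal through JAK2 and STAT5. The corpus luteum forms from the follicle after ovulation and makes progesterone, and in the sow it regresses around the end of pregnancy.

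The ovary ZD8 stood apart from the other 5. It had 32272803 reads, against 51703531 to 60903268 in the others, and its mean Spearman correlation with the other ovaries was 0.765, against 0.903 to 0.920. All 5 of 5 luteal markers (STAR, CYP11A1, HSD3B1, SCARB1 and PTGFR) were present in every ovary, and their summed level was 9121 to 10738 FPKM in the SLS ovaries. In the LLS ovaries it was 12168 FPKM in ZD5, 10835 FPKM in ZD7 and 113 FPKM in ZD8. The theca markers CYP17A1 and INSL3 summed to 13.9 to 74.4 FPKM in SLS and to 9.31 to 415 FPKM in LLS, and the 7 oocyte markers to 6.49 to 22.7 FPKM and to 8.38 to 125 FPKM, with the top of both LLS ranges in ZD8. The differences of the receptors between the groups are therefore given with and without ZD8.

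The luteinizing hormone receptor LHCGR was lower in every LLS ovary than in every SLS ovary. It measured 27.8 FPKM in ZD2, 70.5 in ZD3 and 46.1 in ZD12 of the SLS group. In the LLS group it measured 22.5 FPKM in ZD5, 24.2 in ZD7 and 10.4 in ZD8. The groups did not overlap, although the lowest SLS ovary, ZD2, lay close to the highest LLS ovary, ZD7. The group means were 48.2 ± 21.4 FPKM in SLS and 19.0 ± 7.54 FPKM in LLS (SD, n = 3), 2.53 times higher in SLS. As log2(FPKM + 1), a scale that shrinks the changes of genes with low levels, the difference (LLS minus SLS) was -1.28 (SE 0.43). Its p adjusted over the 12260 tested genes was 0.999 in limma, so that LHCGR was not called, and its unadjusted p of 0.0177 came from the same limma fit. The exact two-sided permutation test gave p = 0.1, the smallest p that 3 against 3 ovaries allow. Without ZD8 the difference was -0.92 (SE 0.35), with an adjusted p of 0.679 in limma and an exact permutation p of 0.2. The groups still did not overlap, as for 19.1% of all tested genes in these 5 ovaries. Without ZD3 the difference was -0.97, with an unadjusted p of 0.0716 in limma. The summed level of the 7 granulosa markers was 395 to 962 FPKM in SLS and 181 to 342 FPKM in LLS, without overlap. INHA alone was the largest part of this sum in every ovary. With each marker weighted alike, as mean deviation on the log2 scale, the list overlapped between the groups. It lay at -0.47, -0.77 and 1.26 in ZD2, ZD3 and ZD12 and at -0.05, -0.33 and 0.37 in ZD5, ZD7 and ZD8. The part of these markers in the difference of LHCGR was not tested.

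These counts of receptors are to be read against all tested genes. With an adjusted p under 0.05 and a fold change over 1 on the log2 scale in either direction required, limma called 0 of 12260 genes (0%) and 0 of the 7 tested receptors. At an unadjusted p under 0.05 it gave 216 genes (1.76%) and 1 receptor, LHCGR. DESeq2 on reads recovered from the FPKM values called 20 genes and edgeR 0, none of them a receptor. The groups did not overlap for 628 genes (5.12%) and for 1 of the 7 receptors, and every LLS value was below every SLS value for 389 genes (3.17%) and, among the receptors, again for LHCGR. Without ZD8, 721 genes (5.88%) had an unadjusted p under 0.05 in limma, again with LHCGR as the 1 receptor. The absolute difference was over 1 for 222 genes (1.81%) and for 3 of the 7 receptors, LHCGR, FSHR and PGRMC1, and without ZD8 it was over 1 for none of these 3.

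LHCGR lies at chr3:91964415-92023821 on the plus strand of Sscrofa11.1, and 32132 bases of it overlap GTF2A1L on the opposite strand. The library protocol removed the second cDNA strand and so kept the strand of the RNA, but whether reads were counted by strand is not given in the sources used here, and reads of the 2 genes may be mixed. GTF2A1L measured 1.27, 2.0 and 1.34 FPKM in ZD2, ZD3 and ZD12 and 0.996, 0.670 and 4.57 FPKM in ZD5, ZD7 and ZD8. It was highest in ZD8, where LHCGR was lowest. Between 1513 reads in ZD8 and 16486 reads in ZD3 stood behind LHCGR.

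**Figure D1:**
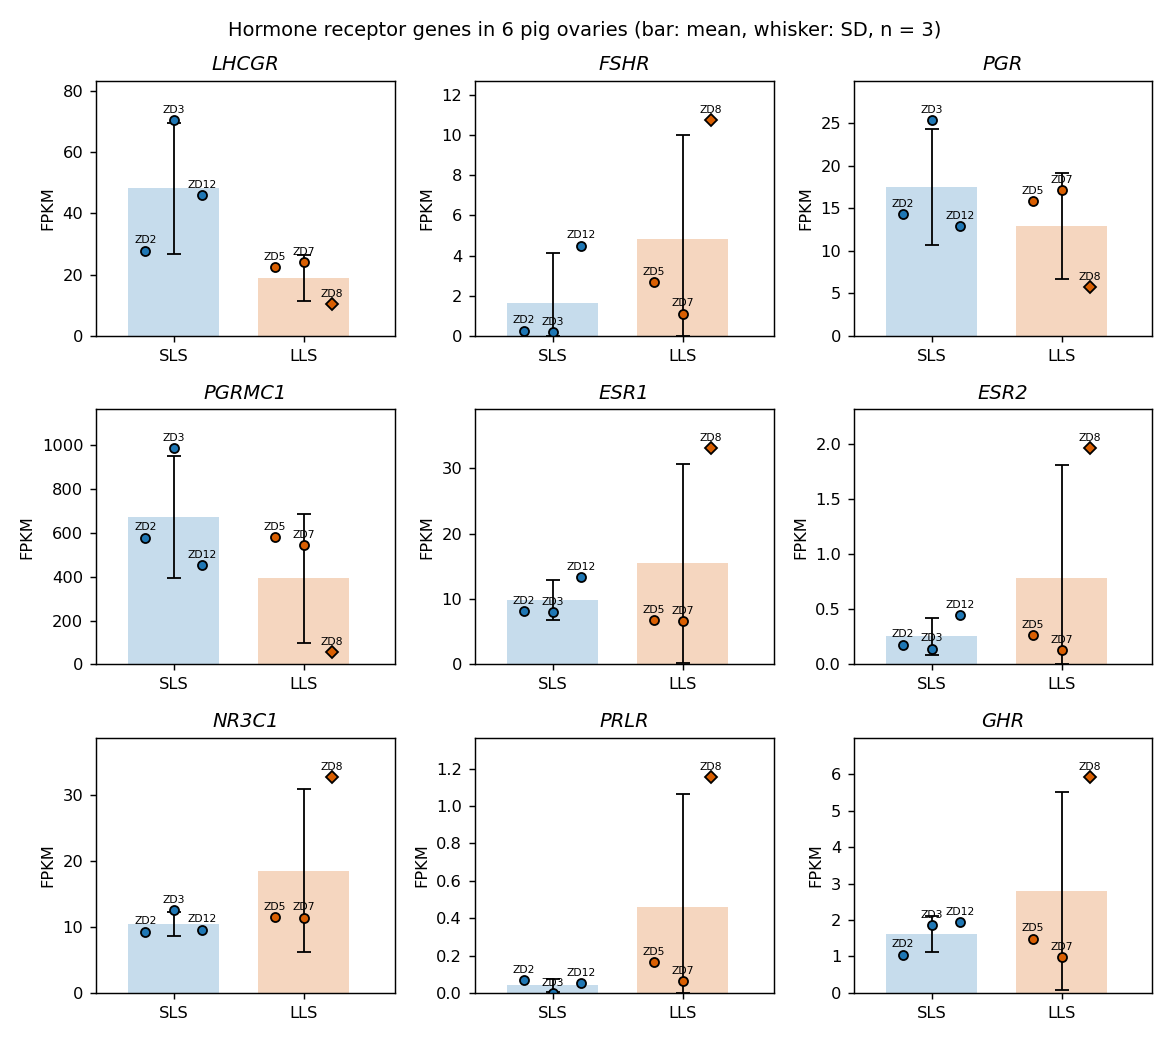
Level of each receptor gene in FPKM (vertical axes, each from 0) in the 3 SLS and 3 LLS ovaries, where points are ovaries, bars the group means and whiskers 1 SD (n = 3, ending at 0 where the SD exceeds the mean), and diamonds mark ZD8. LHCGR is the receptor whose groups do not overlap, and ZD8 is the lowest or highest ovary in all 9 panels.

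The follicle-stimulating hormone receptor FSHR varied more between ovaries than between groups. It measured 0.263 FPKM in ZD2, 0.202 in ZD3 and 4.50 in ZD12 of the SLS group, and 2.68 FPKM in ZD5, 1.11 in ZD7 and 10.8 in ZD8 of the LLS group. The SLS ovary ZD12 lay above 2 of the 3 LLS ovaries, so the groups overlapped. The means were 1.66 ± 2.46 FPKM in SLS and 4.85 ± 5.17 FPKM in LLS (SD, n = 3), and the difference of 1.15 (SE 0.76) on the log2 scale had an adjusted p of 0.999 in limma and an exact permutation p of 0.3. It was 0.46 without ZD8, 1.7 without ZD7, and 1.87 without ZD12, where the groups did not overlap, as for 10.4% of all tested genes in those 5 ovaries. None of these had an adjusted p below 0.978 in limma. Few reads stood behind the low values, 46 in ZD2 and 30 in ZD3, against 998 in ZD8.

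Some markers of granulosa cells were high in the same ovaries as FSHR. FOXL2, a transcription factor of granulosa cells, measured 13.8, 7.25 and 30.6 FPKM in ZD2, ZD3 and ZD12 and 6.11, 6.69 and 37.8 FPKM in ZD5, ZD7 and ZD8. AMH, a hormone of growing follicles, measured 0.208, 0.346 and 7.21 FPKM in the SLS ovaries and 1.69, 1.82 and 12 FPKM in the LLS ovaries in the same order. ZD12 and ZD8, the ovaries highest in FSHR, were also the highest in both markers. The aromatase gene CYP19A1 was at or near 0 in all 6 ovaries, with 0.0137 FPKM in ZD5 as its highest level. INHA, an inhibin subunit and the strongest of the 7 granulosa markers, measured 553, 376 and 726 FPKM in ZD2, ZD3 and ZD12 and 285, 162 and 66.4 FPKM in ZD5, ZD7 and ZD8, without overlap between the groups, and was lowest in ZD8. The list was thus not uniform, and its part in the differences of FSHR was not tested.

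LHCGR and FSHR are neighbours on chromosome 3, with 189159 bases between LHCGR and FSHR, which lies at chr3:91607236-91775255 on the plus strand. Their balance differed strongly between ovaries. The level of LHCGR in FPKM was 106.0 times that of FSHR in ZD2, 350 times in ZD3 and 10.2 times in ZD12. In the LLS ovaries it was 8.38 times in ZD5, 21.8 times in ZD7 and 0.964 times in ZD8. ZD8 had the smallest ratio. With the median transcript length in place of the longest, the ratio was 1.53 in ZD8 and 13.3 to 556 in the other ovaries. ZD8 stayed the lowest, and the groups overlapped through ZD12 and ZD7.

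The progesterone receptors were among the abundant members. PGRMC1, a heme-binding membrane protein linked to progesterone signals, measured 578 FPKM in ZD2, 985 in ZD3 and 453 in ZD12. In the LLS group it measured 581 FPKM in ZD5, 542 in ZD7 and 54.8 in ZD8. ZD5 and ZD7 lay within the SLS range and ZD8 was 10.5 times below the median of the other 5 ovaries. The means were 672 ± 278 FPKM in SLS and 393 ± 293 FPKM in LLS (SD, n = 3). The difference was -1.29 (SE 0.90) on the log2 scale, with an exact permutation p of 0.5, -0.70 in edgeR on recovered reads, and -0.18 without ZD8.

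PGR, the nuclear progesterone receptor, followed PGRMC1 at a lower level. It measured 14.3 FPKM in ZD2, 25.4 in ZD3 and 12.9 in ZD12, and 15.9 FPKM in ZD5, 17.2 in ZD7 and 5.74 in ZD8. The groups overlapped, with means of 17.6 ± 6.84 FPKM in SLS and 12.9 ± 6.27 FPKM in LLS (SD, n = 3). The difference was -0.48 (SE 0.44) on the log2 scale, with an exact permutation p of 0.6, and -0.02 without ZD8. Across the ovaries log2(FPKM + 1) of PGR and PGRMC1 had a Pearson r of 0.96 over 6 ovaries and 0.95 over the 5 without ZD8, given as a description of values that share libraries. PGRMC1 was 31.6 to 40.3 times higher than PGR in 5 ovaries and 9.56 times higher in ZD8.

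Of the estrogen receptors, ESR1 was the prevalent form. ESR1, estrogen receptor alpha, measured 8.19 FPKM in ZD2, 7.98 in ZD3 and 13.4 in ZD12. In the LLS group it measured 6.75 FPKM in ZD5, 6.63 in ZD7 and 33.1 in ZD8. ZD5 and ZD7 were below all 3 SLS ovaries and ZD8 above all of them, so that the direction depended on ZD8. The difference was 0.25 (SE 0.57) on the log2 scale with all ovaries, with an exact permutation p of 1, and -0.46 (SE 0.28) without ZD8, where its adjusted p in limma was 0.9996.

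ESR2, estrogen receptor beta, was weak. It measured 0.179, 0.143 and 0.448 FPKM in ZD2, ZD3 and ZD12 and 0.268, 0.132 and 1.96 FPKM in ZD5, ZD7 and ZD8, on 44 to 377 reads. The groups overlapped, and the difference of 0.37 on the log2 scale (exact permutation p = 0.7) was -0.06 without ZD8. ESR1 was 55.8 times higher than ESR2 in ZD3, 50.1 in ZD7, 45.7 in ZD2, 29.9 in ZD12, 25.2 in ZD5 and 16.8 in ZD8. The excess of ESR1 held in all 6 ovaries and was smallest in ZD8, although both genes were highest there.

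The glucocorticoid receptor NR3C1 was the steadiest member outside ZD8. It measured 9.31 FPKM in ZD2, 12.6 in ZD3 and 9.60 in ZD12, and 11.5 FPKM in ZD5, 11.4 in ZD7 and 32.8 in ZD8. Its highest level was 1.35 times its lowest among the 5 ovaries other than ZD8, against 22.3 times for FSHR. The group means were 10.5 ± 1.82 FPKM in SLS and 18.6 ± 12.3 FPKM in LLS (SD, n = 3). The difference of 0.61 (SE 0.42) on the log2 scale had an exact permutation p of 0.3 and was 0.13 without ZD8.

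The receptors of the cytokine family were low in the deposited FPKM, although for GHR this rests on a long annotated transcript of 21523 bases, and at its median transcript length GHR lay between 5.05 and 30.4 FPKM. GHR, the growth hormone receptor, measured as deposited 1.05 FPKM in ZD2, 1.86 in ZD3 and 1.94 in ZD12, and 1.49 FPKM in ZD5, 0.984 in ZD7 and 5.93 in ZD8. The groups overlapped, with a difference of 0.33 (SE 0.48) on the log2 scale, an exact permutation p of 0.9, and -0.22 without ZD8. PRLR, the prolactin receptor, measured 0.0701, 0 and 0.0504 FPKM in ZD2, ZD3 and ZD12 and 0.167, 0.0613 and 1.16 FPKM in ZD5, ZD7 and ZD8. These values rested on 8, 0 and 5 reads and on 18, 7 and 70 reads, and the 0 in ZD3 allows up to 3 reads or 0.0309 FPKM by counting error alone. The difference of PRLR was 0.42 on the scale of log2(FPKM + 1) (exact permutation p = 0.2) and 0.10 without ZD8. For so low a gene it depends on the scale, with 1.47 on log2(FPKM + 0.1), and 3.11 in edgeR and 3.17 in DESeq2 on the recovered reads of all genes above 0, where DESeq2 gave an unadjusted p of 0.0215 and an adjusted p of 0.9996. The annotated model of PRLR is a single transcript of 1875 bases that is all coding sequence and holds no untranslated part.

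ZD8 held the lowest or the highest level of every receptor. It was lowest for LHCGR, PGR and PGRMC1 and highest for FSHR, ESR1, ESR2, NR3C1, PRLR and GHR. Against the median of the other 5 ovaries, FPKM in ZD8 was 2.68 times lower for LHCGR, 2.77 times lower for PGR and 10.5 times lower for PGRMC1. It was 18.9 times higher for PRLR, 10.9 for ESR2, 9.71 for FSHR, 4.14 for ESR1, 3.97 for GHR and 2.87 for NR3C1. Over all tested genes ZD8 was the lowest or highest ovary for 70.9%, while each other ovary was so for 17.2% to 32.9%. The part of the luteal, theca and oocyte markers in these differences was not tested.

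**Figure D2:**
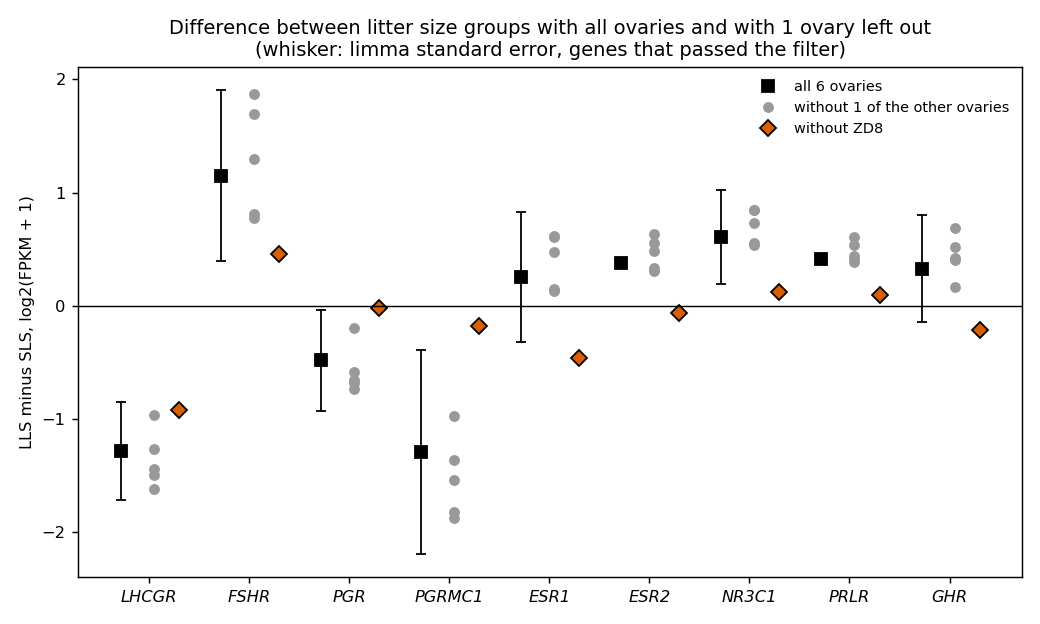
Difference between the groups (LLS minus SLS, vertical axis, log2(FPKM + 1)) for each receptor with all 6 ovaries (squares, whiskers are limma's standard error for the 7 tested genes), without 1 of the other 5 ovaries (grey circles) and without ZD8 (diamonds). Without ZD8 the difference of LHCGR was -0.92, while the others lay between -0.46 for ESR1 and 0.46 for FSHR.

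Of the receptors, the 3 that were lowest in ZD8 and FSHR, which was highest there, are shown by the 200 bases before their annotated 5′ end, because their levels took opposite extremes in this ovary. For PGR this end belongs to a noncoding transcript, and the coding transcript begins further inside the gene, at position 32129221. The sequences are from the Sscrofa11.1 reference, 5′ to 3′ on the strand of the gene. Capitals mark GGGCGG, the GC box bound by SP1, or GATAA, the core bound by GATA factors, as found by a search of both strands, so that CCGCCC and TTATC are the same letters read on the other strand.
LHCGR, chr3:91964215-91964414, plus strand: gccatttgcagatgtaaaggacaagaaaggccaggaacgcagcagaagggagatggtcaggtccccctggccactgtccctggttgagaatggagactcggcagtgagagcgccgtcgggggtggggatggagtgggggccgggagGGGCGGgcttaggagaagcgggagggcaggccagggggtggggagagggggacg
PGRMC1, chrX:97735202-97735401, plus strand: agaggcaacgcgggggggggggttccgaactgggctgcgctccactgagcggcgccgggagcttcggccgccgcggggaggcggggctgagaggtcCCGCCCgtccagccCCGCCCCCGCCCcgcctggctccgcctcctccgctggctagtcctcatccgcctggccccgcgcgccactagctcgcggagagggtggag
PGR, chr9:32129777-32129976, minus strand: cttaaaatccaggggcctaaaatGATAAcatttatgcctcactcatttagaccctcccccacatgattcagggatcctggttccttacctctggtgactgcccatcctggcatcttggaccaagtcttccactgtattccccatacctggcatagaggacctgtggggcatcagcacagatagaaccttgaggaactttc
FSHR, chr3:91607036-91607235, plus strand: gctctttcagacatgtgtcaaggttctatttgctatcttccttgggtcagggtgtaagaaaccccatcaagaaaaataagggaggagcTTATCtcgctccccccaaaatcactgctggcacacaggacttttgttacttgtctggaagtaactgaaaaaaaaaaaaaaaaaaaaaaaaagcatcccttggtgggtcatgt
GGGCGG was found in LHCGR, PGRMC1 and GHR and in 43.8% of the 19532 promoters of this length, and GATAA in FSHR, PGR, ESR2 and GHR and in 14.7%. In PGRMC1 the GC box letters occur 3 times on the minus strand, at -104, -90 and -84 from the start, where the last 2 matches touch. The 3 receptors lowest in ZD8 therefore shared neither motif among all of them. G and C made up 66% of the window of LHCGR, 78% of that of PGRMC1, 49% of that of PGR and 41% of that of FSHR, with a median of 59% over all promoters. The letters AAGGTCA, bound by NR5A1 and NR5A2, were in none of the 9 windows and in 2.52% of all promoters. TGACGTCA, the full cAMP response element, was in none and in 1.55%. The window of PRLR precedes a model of coding sequence only, so it may not lie at the start of the transcript. TATAAA was found in the window of ESR2 and in 7.68% of all, and CACGTG, an E-box, in that of NR3C1 and in 5.50%.

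The order of the members by level was spread over a wide range. Mean log2(FPKM + 1) over the 6 ovaries was 8.67 for PGRMC1, 4.88 for LHCGR, 3.91 for PGR, 3.82 for NR3C1, 3.53 for ESR1, 1.6 for FSHR, 1.54 for GHR, 0.51 for ESR2 and 0.26 for PRLR. By mean FPKM, PGRMC1 was higher than 99.7% of the 29884 genes in the table and LHCGR higher than 93.9%. Of these genes, 23564 were above 0 in at least 1 ovary. Neighbours in this order were compared within ovaries by an exact two-sided sign-flip permutation test over 8 pairs, whose smallest p is 0.031. The higher gene was above the lower in 6 of 6 ovaries for PGRMC1 and LHCGR, LHCGR and PGR, ESR1 and FSHR, GHR and ESR2, and ESR2 and PRLR, each with an exact permutation p of 0.031 (0.05 after Benjamini-Hochberg adjustment). For PGR and NR3C1 the difference was 0.10 ± 1.20 (SD, n = 6, exact permutation p = 0.875), for NR3C1 and ESR1 0.28 ± 0.46 (p = 0.188) and for FSHR and GHR 0.06 ± 0.87 (p = 0.844). These 3 pairs did not differ beyond their spread over all 6 ovaries. Without ZD8, however, PGR was above NR3C1 in 5 of 5 ovaries, by 0.58 ± 0.22 (SD, n = 5, exact permutation p = 0.0625, the smallest p that 5 ovaries allow), while GHR and FSHR changed places, as they did without ZD12 or without ZD5. PGR and NR3C1 changed places without ZD3.

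This order depends in part on the length by which reads were divided. The deposited FPKM used the longest annotated transcript, which for GHR is 21523 bases, 5.13 times the median of 4195.5 bases over its 12 transcripts. At the median length the mean of GHR was 11.3 FPKM in place of 2.21. The order was then PGRMC1, LHCGR, ESR1, PGR, NR3C1, GHR, FSHR, ESR2 and PRLR, and GHR was above FSHR in 6 of 6 ovaries (exact permutation p = 0.031). ESR1 was above PGR in only 2 of 6 ovaries (p = 0.906 in the same exact test), so that these places are not settled, and LHCGR was above ESR1 in 5 of 6 (p = 0.0625 in the same exact test). The differences between the litter size groups in recovered reads do not depend on this length.

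**Figure D3:**
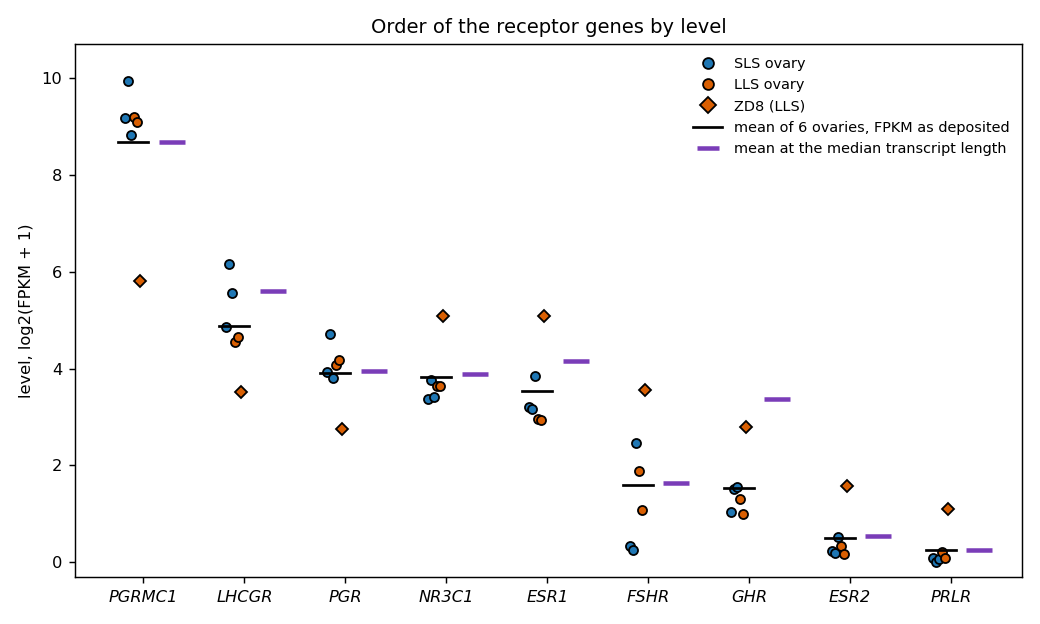
Level of each receptor in log2(FPKM + 1) (vertical axis) in the 6 ovaries, ordered by the mean, where black lines are means of the deposited values and violet lines the means with reads divided by the median transcript length. PGRMC1 leads with a mean of 8.67, and GHR is the member that moves most between both lengths.

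For each receptor, the genes closest in pattern were sought by Pearson r of log2(FPKM + 1) among the tested genes, as a description over ovaries that share libraries. PGR was closest to RASGRP3, an activator of Ras proteins, both over 6 ovaries (r = 0.999) and without ZD8 (r = 0.998), and PGR was 1.59 to 2.29 times as high. For 7 receptors, LHCGR, FSHR, PGRMC1, ESR2, NR3C1, PRLR and GHR, none of the 3 closest genes was the same without ZD8. Over 6 ovaries the closest genes included SHCBP1, KCNA4 and SNRPD1 for LHCGR, SCARA5, NAV2 and the multicopy tRNA gene TRNAG-UCC for FSHR, RDH11, VWA8 and CTSC for PGRMC1, and MAPKAPK5 and RNMT for NR3C1. They also included KLF15 for ESR1, ZNF304, PPP4R1L and MAML3 for ESR2, RNF24, DDX24 and NHSL1 for PRLR, and DYRK1A, EPC1 and ALMS1 for GHR. Without ZD8 the gene closest to FSHR was IHH, a hedgehog ligand of granulosa cells, with 0.217, 0.0511 and 12.4 FPKM in ZD2, ZD3 and ZD12 and 6.38, 1.46 and 7.64 FPKM in ZD5, ZD7 and ZD8. IHH, like FSHR, was highest in ZD12 among those 5 ovaries and lowest in ZD3.

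**Figure D4:**
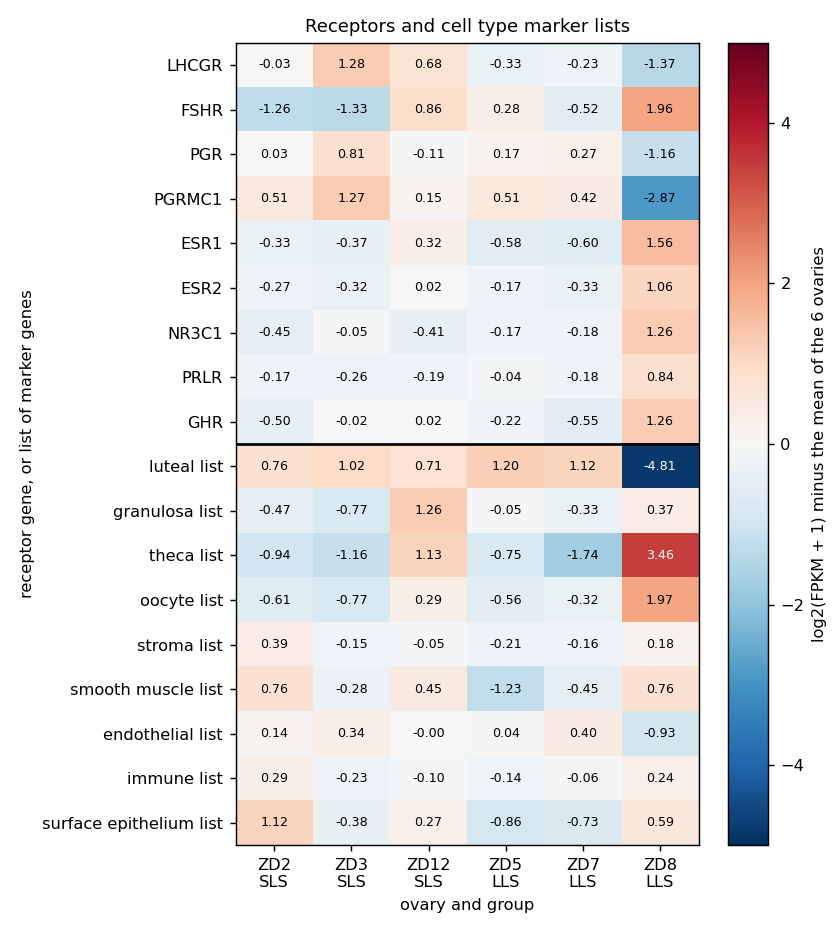
Deviation of log2(FPKM + 1) from the mean over the 6 ovaries (colour and printed value) for the 9 receptors and, under the line, for 9 lists of cell type markers (mean over the list), by ovary and group. In ZD8 the luteal list lay at -4.81 and the theca list at 3.46, beside PGRMC1 at -2.87 and FSHR at 1.96.

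Other genes of the same systems were described by list, next to all tested genes. Over these, limma put 68 higher and 148 lower in the LLS group with an unadjusted p under 0.05, and the median difference was 0.02 on the log2 scale. Without ZD8 it put 385 higher and 336 lower, and the median was -0.10. The difference was below 0 for 47.4% of all tested genes, and for 66.0% without ZD8. None of the genes in these lists was called. Genes named below had the smallest p or the highest levels of their list. Those named for a small p are more likely to show no overlap, which 5.12% of all tested genes did. Of 17 other hormone receptors 13 were tested, and 1 was lower at that level and 0 higher, with a median difference of 0.20 that was -0.26 without ZD8. The 1 was OXTR, the oxytocin receptor, with 13.3, 7.77 and 6.94 FPKM in ZD2, ZD3 and ZD12 and 3.17, 4.78 and 1.38 FPKM in ZD5, ZD7 and ZD8. Like LHCGR, OXTR was below every SLS ovary in every LLS ovary. Its difference was -1.37 (SE 0.40) on the log2 scale, with an adjusted p of 0.999 in limma, and -1.02 without ZD8.

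Of the genes that carry the gonadotropin signal through cAMP, 27 of 27 were tested, and 0 were higher and 0 lower at an unadjusted p under 0.05 in limma. Their median difference was 0.09 on the log2 scale, and -0.07 without ZD8. GNAS, the G protein subunit that both gonadotropin receptors use, measured 144 to 152 FPKM in the SLS ovaries and 131, 136 and 181 FPKM in ZD7, ZD5 and ZD8. ADCY3, an adenylyl cyclase, measured 31.2, 18.3 and 30.4 FPKM in ZD2, ZD3 and ZD12. In ZD5, ZD7 and ZD8 it measured 36.6, 37.5 and 33.3 FPKM, with no overlap. Its difference was 0.45 (SE 0.29) on the log2 scale (adjusted p = 0.999 in limma), or 0.50 without ZD8.

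Transcripts of most pituitary hormones were at or near 0 in the ovary. PRL, GH1 and TSHB were at 0 reads in all 6 libraries, each of which allows up to 3 reads. FSHB had 2 reads in ZD8 and CGA, the shared subunit of the gonadotropins, 2 reads in ZD3, with 0 in the other libraries. LHB had 9 to 44 reads, 0.0509 to 0.243 FPKM. Of this list of 7 only POMC, the precursor of ACTH, was tested, with 0.576 to 3.00 FPKM on 42 to 201 reads and a difference of -0.29 on the log2 scale, or -0.43 without ZD8.

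Downstream of PRLR and GHR, 18 of 18 genes were tested and 0 had an unadjusted p under 0.05 in limma in either direction, with a median difference of -0.082 on the log2 scale. Without ZD8 the median was -0.11, with 1 higher and 0 lower. STAT5A, a transcription factor of this pathway, measured 20.7, 15.8 and 15.2 FPKM in ZD2, ZD3 and ZD12 and 11.3, 13.3 and 14.2 FPKM in ZD5, ZD7 and ZD8. The groups of STAT5A did not overlap, with a difference of -0.38 (SE 0.26) on the log2 scale (adjusted p = 0.999 in limma). Without ZD8 its difference was -0.44. IGF1, a growth factor that growth hormone induces in liver, measured 5.96, 11.0 and 5.54 FPKM in SLS and 6.04, 2.99 and 3.5 FPKM in LLS, and its groups overlapped.

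Of 19 chaperones and coregulators of steroid receptors 18 were tested, again with 0 at an unadjusted p under 0.05 in limma in either direction and a median difference of 0.037 on the log2 scale. Without ZD8 the median turned to -0.14, with 13 of 18 below 0, near the share of all tested genes. HSP90AB1, a chaperone that holds steroid receptors ready for hormone, measured 297 to 439 FPKM in SLS and 276 to 439 FPKM in LLS. Of 12 genes known to respond to progesterone or estrogen 8 were tested, and 0 had an unadjusted p under 0.05, while the fitted difference was below 0 for 8 of 8, with a median of -0.43 on the log2 scale. Without ZD8 it was below 0 for 6 of 8, near the share of all tested genes given above, with a median of -0.26, and 1 gene was higher and 1 lower at an unadjusted p under 0.05 in limma. XBP1, known to respond to estrogen in breast cells, measured 253, 205 and 259 FPKM in ZD2, ZD3 and ZD12. In ZD5, ZD7 and ZD8 it measured 162, 188 and 171 FPKM, without overlap. Its difference was -0.45 (SE 0.33) on the log2 scale (adjusted p = 0.999 in limma), or -0.44 without ZD8.

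In the list of glucocorticoid genes, 11 of 11 were tested, and 1 was lower and 0 higher at an unadjusted p under 0.05 in limma, with a median difference of 0.041 on the log2 scale. Without ZD8 the median turned to -0.20, with 1 higher (DUSP1) and 2 lower (HSD11B2 and CEBPD). In all 6 ovaries the 1 was HSD11B2, the enzyme that turns active cortisol into inactive cortisone, with 33.1, 24.9 and 81.2 FPKM in ZD2, ZD3 and ZD12 and 10.02, 19.6 and 1.95 FPKM in ZD5, ZD7 and ZD8. All 3 LLS ovaries were below all 3 SLS ovaries, with a difference of -2.25 (SE 0.71) on the log2 scale, an adjusted p of 0.999 in limma, and -1.47 without ZD8. DUSP1, a phosphatase induced by glucocorticoids, measured 169, 126 and 52.4 FPKM in SLS and 250, 237 and 29.7 FPKM in LLS, and its difference of 0.22 on the log2 scale was 1.22 without ZD8.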

How the data were processed

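Left ovaries of 6 sows were analysed, 3 per group as the labels give them. After trimming, reads were mapped by the authors with HISAT2 to Sscrofa11.1, and gene levels were deposited as FPKM. The counting program is not given in the sources used here. The authors also deposited miRNA reads scaled to depth (RPM) of the same ovaries, used here only for the likeness of libraries (353 miRNAs, mean Spearman correlation of ZD8 with the others 0.936, against 0.957 to 0.970). From the deposited FPKM, whole reads were recovered with the longest annotated transcript for 23477 of 23564 genes above 0 (99.6%, within 0.001 of a whole read), and the totals were 32272803 to 60903268 reads. Of 29884 gene names, 29850 were in NCBI annotation release 106.

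The main test was limma 3.58.1 with a trended variance (R 4.3.3) on log2(FPKM + 1), for 12260 genes with at least 1 FPKM in at least 3 libraries. A call needed a p under 0.05 after Benjamini-Hochberg adjustment and a log2 fold change above 1 in either direction. Members below the filter got no p in the main test and were compared by exact permutation. They also entered the settings without a filter, in limma, edgeR and DESeq2. edgeR 4.0.16 and DESeq2 1.42.0 on the recovered reads called 0 and 20 genes. The tests were tested on simulated data. The p-values of the groups rest on the variation between these ovaries, and those of limma also draw on the variances of the other tested genes. Those for the order of the members rest on differences within ovaries. Named genes were the members, from each list up to 3 genes with the smallest p and 2 with the highest level, 3 genes closest in pattern to each member, and marker genes. GTF2A1L was named because it overlaps LHCGR. Some genes that this rule names are not reported here. The members and lists were chosen with earlier results of these data known. Alternatives were another pseudocount, no filter, quantile normalization, median centring, TPM, no variance trend, array weights and leaving out each ovary.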

Additional observations from a re-analysis of the deposited data

How the results depend on the processing

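No receptor reached an adjusted p under 0.05 with a log2 fold change over 1 under any setting, and LHCGR stayed lower in LLS under all 17 alternatives, between -1.62 and -0.84 on the log2 scale, with adjusted p between 0.291 and 0.99999. limma's array weights, which gave ZD8 a weight of 0.135 against 0.597 to 2.27 for the others, turned the difference of PGR to 0.10, of ESR1 to -0.52, of ESR2 to -0.080 and of GHR to -0.17. Leaving out each ovary gave -0.46 to 0.62 for ESR1, -0.060 to 0.63 for ESR2 and -0.22 to 0.68 for GHR, with the lowest value without ZD8. FSHR, PGRMC1, NR3C1 and PRLR kept their sign under all alternatives run, but not their size, since array weights gave 0.14, -0.081, 0.23 and 0.11. Leaving out each ovary gave 0.46 to 1.87 for FSHR and -1.87 to -0.18 for PGRMC1. With all genes above 0 reads, added after seeing the data, edgeR gave 1.30 for ESR2 and 3.11 for PRLR.

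The count of called genes was 0 with limma, 13 with array weights, 20 with DESeq2, 13 with DESeq2 on all genes above 0 reads, and 0 to 21 when each ovary was left out, with 21 without ZD8. Without an adjustment or a fold threshold it was 216, with LHCGR as the 1 receptor. Receptors whose groups did not overlap numbered 2 after quantile normalization (LHCGR and PRLR, which is below the filter, against 5.78% of the tested genes) and 1 to 2 when each ovary was left out, where the second was ESR1 without ZD8, PRLR without ZD2 or ZD7, NR3C1 without ZD3 and FSHR without ZD12. With 1 ovary left out, 8.58% to 19.1% of all tested genes did not overlap. Without ZD8, 2 receptors kept at least 1 of their 3 closest genes. The causes were not tested. The median difference over all tested genes was 0.02, and -0.12 with array weights. No paired analysis was possible because the replicate numbers only name the ovaries.

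Depth limits PRLR, ESR2 and the low FSHR values, and 3 ovaries per group cannot give a permutation p below 0.1.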
